A study of Mus musculus with 9 samples.

Results

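The urea cycle and the handling of ammonia in mouse liver were followed here through 10 genes: Nags, Cps1, Otc, Ass1, Asl, Arg1, the mitochondrial carriers Slc25a13 and Slc25a15, and the glutamine enzymes Glul and Gls2. They were chosen by name, and all 10 are among the 37074 gene names on the arrays, where they are read by 16 of 56605 probes. Whole liver RNA was hybridised to 9 one-colour Agilent arrays, 3 for each of 3 groups. The AAV-V group was male mice that received an empty adeno-associated virus intravenously and ate a normal diet. The AAV-GP73 group received a virus that expresses mouse GP73, a Golgi membrane protein encoded by Golm1, on the same diet. The AAV-V HFD group received the empty virus and a high-fat diet (HFD). All 9 samples are labelled 12 months, which is listed as their age. The study instead counts 12 months from injection of the virus into young adult mice, so the label may not be their age. How long the HFD lasted is uncertain: the account of the array experiment says 12 months, that of the diet model a shorter time. The mice were C57BL/6N per the study's methods, and the study describes the virus as hepatocyte-specific. Whether an array held RNA of a single mouse or of a pool is not given, so p-values measure only the spread between these samples.

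The urea cycle converts ammonia, which is toxic, into urea for excretion, and in mammals the complete cycle runs almost only in the liver. N-acetylglutamate, made by NAGS, switches on carbamoyl phosphate synthetase (CPS1), which fixes ammonia in the mitochondria, and OTC joins the product to ornithine. The cytosolic enzymes ASS1, ASL and ARG1 complete the cycle, while SLC25A15 carries ornithine into the mitochondria and SLC25A13 exports the aspartate that ASS1 needs. The cycle is strongest in periportal hepatocytes together with the glutaminase GLS2, which releases ammonia from glutamine, and glutamine synthetase (GLUL) in the hepatocytes next to the central vein captures the ammonia that escapes.

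Signals are given as scaled log2 values, the log2 of the deposited processed signal after each array was shifted to a common 75th percentile of the 2667 probes that read well above background on all 9 arrays. This shift was large. The median processed signal of those 2667 probes was 33.2 to 38.7 on the AAV-V arrays, 104 to 129 on the AAV-GP73 arrays and 76.4 to 124 on the AAV-V HFD arrays, and 6.67 to 7.21%, 12.5 to 14.9% and 10.2 to 13.2% of all probes, respectively, were well above background. The scaling therefore removed 1.53 log2 units from the difference between AAV-GP73 and AAV-V and 1.45 from that between AAV-V HFD and AAV-V. Slide 1 held both groups on the normal diet and slide 2 the group on the HFD, so diet and slide cannot be told apart. The single Golm1 probe was well above background on 0 of the 9 arrays, AAV-GP73 included. Whether the vector carries the stretch that this probe reads is not given in the sources used here, so the arrays do not check the GP73 label. The 10 hepatocyte genes of a marker list were well above background on all arrays of every group, so the defining genes of the labelled tissue were present, and 0 of 6 cholangiocyte markers could be tested.

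Tests were limited to probes detected, that is well above background, on the 3 arrays of some group, which left 6593 probes and, of the members, 9 probes of 8 genes. Several of the 8 passed only through the group in which they were bright, so the number that passed is itself no result. Nags (chr11:102009515-102009574, mm9) was well above background on 1 AAV-GP73 array only and Slc25a15 (chr8:23487872-23487931) on none, so neither the activator enzyme nor the ornithine carrier could be compared. The second probes of Otc, Asl, Slc25a13 and Gls2 and 1 of the 3 Glul probes were well above background on no array.

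Probe sequences are shown where a result turns on which stretch of a transcript was read, namely for Cps1, the member called lower than in AAV-V, and for the 2 Glul probes that were bright enough to differ or failed to. They are copied from the scanner files, 5′ to 3′, and no base is marked.
Cps1, transcript base 4478: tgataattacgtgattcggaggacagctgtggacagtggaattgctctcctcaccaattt
Glul, transcript base 1062: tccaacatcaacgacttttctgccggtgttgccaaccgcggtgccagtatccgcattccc
Glul, transcript base 408: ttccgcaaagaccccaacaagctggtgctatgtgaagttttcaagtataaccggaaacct

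Otc, Slc25a13 and Glul were higher than AAV-V in both other groups, and the 250 bases before their transcription starts are printed to show what sequence these genes share. The bases come from RefSeq (GRCm38.p6), where 6 of the 10 members matched. Capitals mark matches on either strand to TTNNGNAA, the core bound by C/EBP factors, to CAAAGTNCA, a form of the HNF4 site, to TGACG, the core of the cyclic AMP response element, to AGAACA, part of the glucocorticoid response element, or to TATAAA.
Otc, chrX:10252055-10252304, plus strand: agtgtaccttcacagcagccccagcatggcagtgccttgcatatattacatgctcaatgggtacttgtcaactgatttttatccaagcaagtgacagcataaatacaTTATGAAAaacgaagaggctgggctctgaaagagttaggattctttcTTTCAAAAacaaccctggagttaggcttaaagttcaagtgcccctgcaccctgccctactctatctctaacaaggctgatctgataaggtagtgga
Slc25a13, chr6:6217174-6217423, minus strand: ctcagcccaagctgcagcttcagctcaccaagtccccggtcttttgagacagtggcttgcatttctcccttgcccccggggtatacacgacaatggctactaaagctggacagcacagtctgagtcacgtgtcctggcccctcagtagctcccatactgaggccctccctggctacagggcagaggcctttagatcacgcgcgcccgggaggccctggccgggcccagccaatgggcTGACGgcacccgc
Glul, chr1:153899679-153899928, plus strand: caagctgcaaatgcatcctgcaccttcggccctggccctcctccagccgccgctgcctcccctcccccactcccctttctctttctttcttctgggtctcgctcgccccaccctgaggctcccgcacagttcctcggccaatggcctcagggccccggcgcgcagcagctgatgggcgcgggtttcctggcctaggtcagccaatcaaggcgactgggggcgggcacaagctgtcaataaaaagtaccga
The Otc window held 2 matches to TTNNGNAA, which 36.8% of all 32851 promoter windows hold. The Slc25a13 window held 1 match to TGACG, present in 17.8% of all windows, and the Glul window held none of the letters searched. CAAAGTNCA, AGAACA and TATAAA, in 1.19%, 16.1% and 12.4% of all windows, were in none of these 3, so the 3 genes had no searched motif in common in this stretch.

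In AAV-GP73 livers Otc, Asl, Slc25a13, Glul and Gls2 were higher than in AAV-V, and Ass1 and Arg1 did not pass the test. Cps1 was lower relative to the other probes, a direction that was not kept under every scaling. Counting each gene by its brightest probe, 5 of the 8 tested members were called higher and 1 lower, calls in limma requiring both a 2-fold change and an adjusted p under 0.05. Of the 5, Asl and Slc25a13 had no AAV-V array well above background, so their calls rest on fitted values there. Over all 5763 gene names tested, 33.2% were called higher and 19.4% lower, so changes in either direction were common on these arrays. The median change of all probes was 0.64 on the log2 scale, and that of the 8 members was 1.84.

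**Figure D1:**
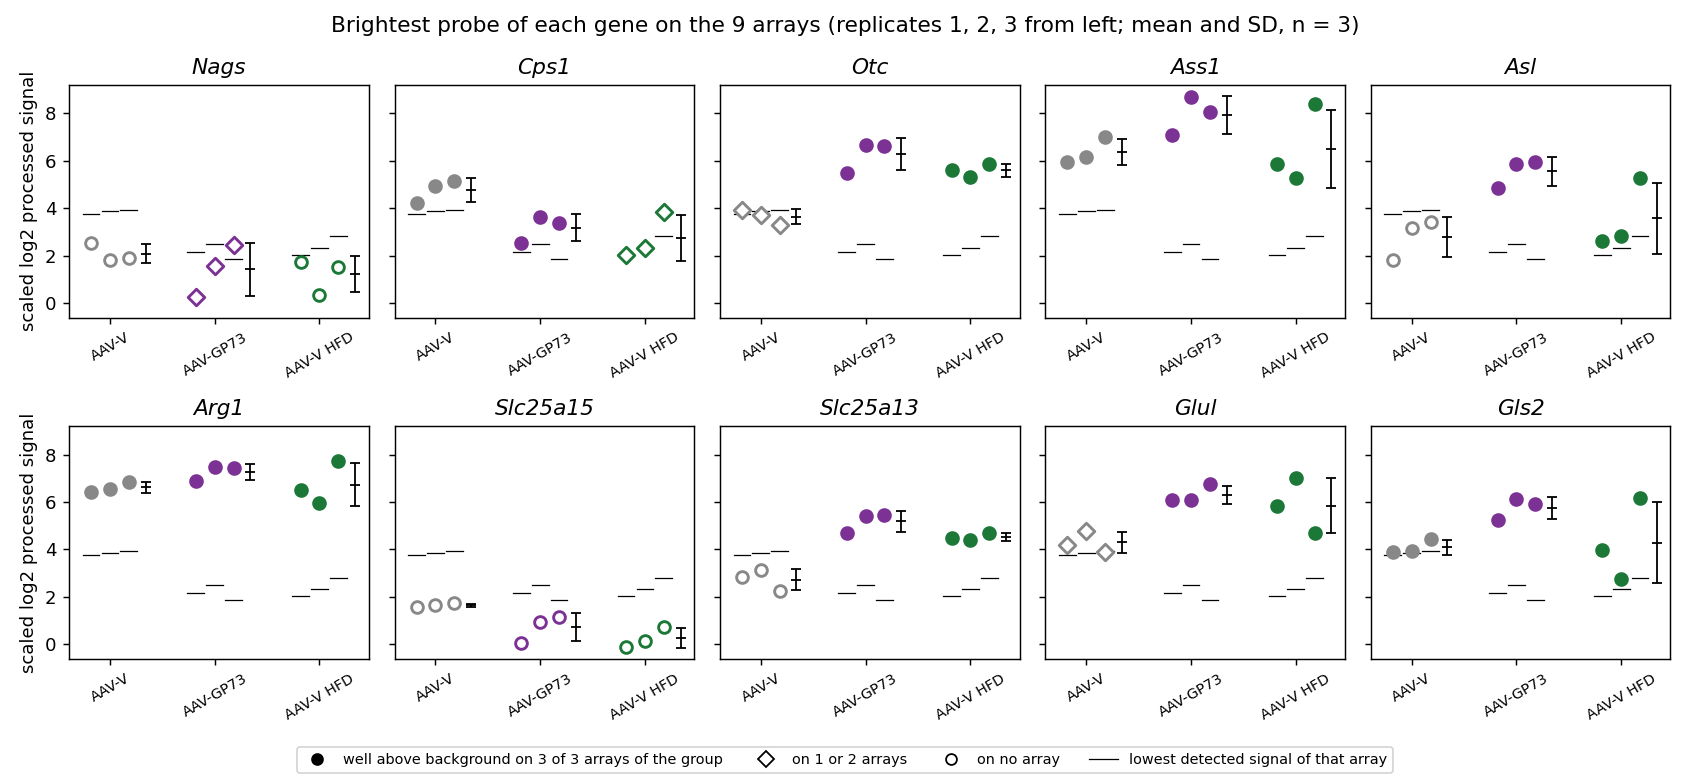
Scaled log2 processed signal of the brightest probe of each of the 10 genes on the 9 arrays, by group, with the mean and SD of 3 arrays beside the points. Short black lines mark the lowest signal that was well above background on that array. Otc and Slc25a13 lie higher on all 6 AAV-GP73 and AAV-V HFD arrays than on any AAV-V array, Cps1 lies lower, and Nags and Slc25a15 stay near or under the lines.

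Among the mitochondrial enzymes, Cps1 (chr1:67276029-67276088), the entry enzyme of the cycle, read 4.21, 4.92 and 5.16 on the 3 AAV-V arrays and 2.52, 3.63 and 3.37 on the AAV-GP73 arrays. The groups did not overlap, each AAV-GP73 array lying below all AAV-V arrays. Its log2 fold change was -1.59 (SE 0.48, 95% interval -2.63 to -0.54, limma adjusted p = 0.0132). This fall is a fall relative to the other probes on the same arrays: the unscaled processed signals were 9.17, 14.1 and 19.5 in AAV-V and 7.64, 16.8 and 17.6 in AAV-GP73, and without any scaling the change was -0.05. Over all 56605 probes, most of them without signal, the same scaling gave a median of -1.61, close to the value of Cps1. The Cps1 signals of 7.64 to 19.5 were well above background on all these arrays but dim, the lowest detected signals being 5.95 to 8.39. When the arrays were aligned on the spike-in controls, the change was 0.09, and with the 75th percentile of all probes it was -0.59 (adjusted p = 0.213). Its distance from the median of all probes tested was -2.22, a value that no shift of a whole array can alter, and it was -2.35 with quantile normalization and -2.56 in the authors' log2 values. The call was also lost without AAV-V replicate 3 (-1.39, adjusted p = 0.0526) or without AAV-GP73 replicate 1 (-1.26, adjusted p = 0.0611).

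Otc (chrX:9897267-9897326), whose enzyme forms citrulline, was called higher. It read 3.93, 3.72 and 3.30 in AAV-V, where 1 of the 3 arrays was well above background, and 5.49, 6.67 and 6.64 in AAV-GP73. All 3 AAV-GP73 arrays lay above all AAV-V arrays, with a log2 fold change of 2.62 (SE 0.35, limma adjusted p = 0.000163). In unscaled signal Otc went from between 5.37 and 7.53 to between 59.9 and 169.

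Of the 3 cytosolic enzymes 1 was called. Asl (chr5:130487513-130487736, a probe that spans an intron), the lyase that splits argininosuccinate, read 1.83, 3.15 and 3.41 in AAV-V, where no array was well above background, and 4.85, 5.88 and 5.94 in AAV-GP73. It was at least 3.24-fold higher by the bound. The limma adjusted p of 0.0036 belongs to the fitted change, which uses AAV-V signals below detection. Ass1 (chr2:31376068-31376127), the synthetase before it, read 5.94, 6.16 and 7.01 in AAV-V and 7.07, 8.69 and 8.04 in AAV-GP73. The Ass1 groups did not overlap, but the change of 1.57 (95% interval 0.07 to 3.06) had an adjusted p of 0.0657 in limma and was not called. The Ass1 probe also matches the transcribed pseudogene Gm5424 in the files' annotation, and the share of signal from each is uncertain. Arg1 (chr10:24636194-24636253), the arginase that releases urea, read 6.44, 6.53 and 6.86 in AAV-V and 6.86, 7.46 and 7.44 in AAV-GP73. Its change of 0.64 (95% interval -0.25 to 1.53, limma adjusted p = 0.184) equalled the median of all probes.

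Of the carriers, Slc25a13 (chr6:5991482-5991541), which supplies aspartate to ASS1, read 2.82, 3.12 and 2.23 in AAV-V with no array well above background. In AAV-GP73 it read 4.69, 5.40 and 5.45, clear of all 3 AAV-V arrays. It was at least 2.5-fold higher by the bound, and the limma adjusted p of 0.000132 again belongs to the fitted change. The other carrier, Slc25a15, could not be tested, as given above.

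Both glutamine enzymes were higher in AAV-GP73. The brighter Glul probe, at transcript base 2718 (chr1:155756765-155756824), read 4.20, 4.80 and 3.91 in AAV-V and 6.08, 6.10 and 6.74 in AAV-GP73, a log2 fold change of 2.01 (SE 0.49, limma adjusted p = 0.0044). The probe at base 1062 was detected on all AAV-GP73 arrays but none of AAV-V, and was at least 1.30-fold higher by the bound. Its limma adjusted p of 0.00143 belongs to the fitted change. The probe at base 408 was well above background nowhere, so the 3 Glul probes do not read the transcript equally well. Gls2 (chr10:127646830-127646889) read 3.87, 3.95 and 4.43 in AAV-V and 5.23, 6.13 and 5.91 in AAV-GP73. The Gls2 groups did not overlap, and its change of 1.67 (SE 0.65) was called at a limma adjusted p of 0.042. That call was lost when any 1 of the 6 arrays compared was left out, with changes of 1.49 to 1.94 and adjusted p of 0.0501 to 0.119. All 8 genes had groups that did not overlap, 7 higher and 1 lower, where 44.7% and 22.9% of all gene names tested did so. With normexp background correction in place of the deposited one, 0 of the 8 were called, Otc and Glul kept their direction (0.48 and 0.41), and Asl and Slc25a13 were at -0.025 and -0.052. Over all 6593 probes normexp left 152 called higher and 739 lower, and the cause was not tested.

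On the HFD Otc, Slc25a13 and Glul were higher than in AAV-V, and Cps1 was lower relative to the other probes. With 3 of 8 members higher and 1 lower in limma, the members compare with 24.8% and 18.1% of all gene names tested. Otc and Slc25a13 were above and Cps1 below AAV-V with no overlap, as were 33.9% and 23% of gene names, and normexp left 1 of 8 called, Cps1. The median change of the members was 0.49 against 0.41 for all probes. This comparison uses the same AAV-V arrays as the one with AAV-GP73, so a shared direction is not independent.

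Cps1 read 2.01, 2.33 and 3.85 on the AAV-V HFD arrays, of which 1 was well above background, and each was below the lowest AAV-V array. Its log2 fold change was -2.03 (SE 0.48, limma adjusted p = 0.00482). As in AAV-GP73, the size depends on the scaling: it was -0.70 with the spike-in controls (adjusted p = 0.168) and -0.58 with no scaling, and -2.44 relative to the median of all probes. Otc read 5.60, 5.32 and 5.87 on the same arrays, all clear of AAV-V, with a change of 1.95 (SE 0.35, limma adjusted p = 0.00132). Slc25a13 was even across the HFD arrays at 4.49, 4.38 and 4.69 and was at least 1.58-fold higher than AAV-V by the bound. Its limma adjusted p of 0.00116 belongs to the fitted change, which uses AAV-V signals below detection.

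Glul at base 2718 read 5.84, 7.0 and 4.69 on the HFD arrays. The lowest of these lay under the highest AAV-V array, so the groups overlapped, and the change of 1.54 (SE 0.49) had a limma adjusted p of 0.0211. The Glul call was lost without AAV-V HFD replicate 2 (0.97, adjusted p = 0.0904) or without AAV-V replicate 3 (1.35, adjusted p = 0.0775). The probe at base 1062 was not called (limma adjusted p = 0.0954), and no fold is given, since it was well above background on none of the AAV-V arrays.

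Ass1, Asl, Gls2 and Arg1 split the HFD group from within. Cps1 was also highest on AAV-V HFD replicate 3 (2.01, 2.33 and 3.85). Otc (5.60, 5.32 and 5.87) and Slc25a13 (4.49, 4.38 and 4.69) were more even, so the split did not hold for every gene of the cycle. Ass1 read 5.85, 5.27 and 8.37 on AAV-V HFD replicates 1 to 3, Asl read 2.60, 2.81 and 5.29, Gls2 read 3.97, 2.75 and 6.15, and Arg1 read 6.50, 5.95 and 7.73. In each of these 4 genes replicate 3 was far above the others, and the HFD group overlapped AAV-V. The changes against AAV-V were 0.13 for Ass1, 0.21 for Gls2 and 0.12 for Arg1, with limma adjusted p of 0.883, 0.802 and 0.826. Without AAV-V HFD replicate 3 these 3 changed sign, to -0.81, -0.72 and -0.39, and none was called. Asl was not called either (adjusted p = 0.337), and with no AAV-V array well above background its direction cannot be read. Glul ran the other way, with replicate 3 the lowest of the HFD arrays. That array also had the lowest share of probes well above background and the lowest median signal of its group, 10.2% and 76.4, and the part of this in the result was not tested.

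**Figure D2:**
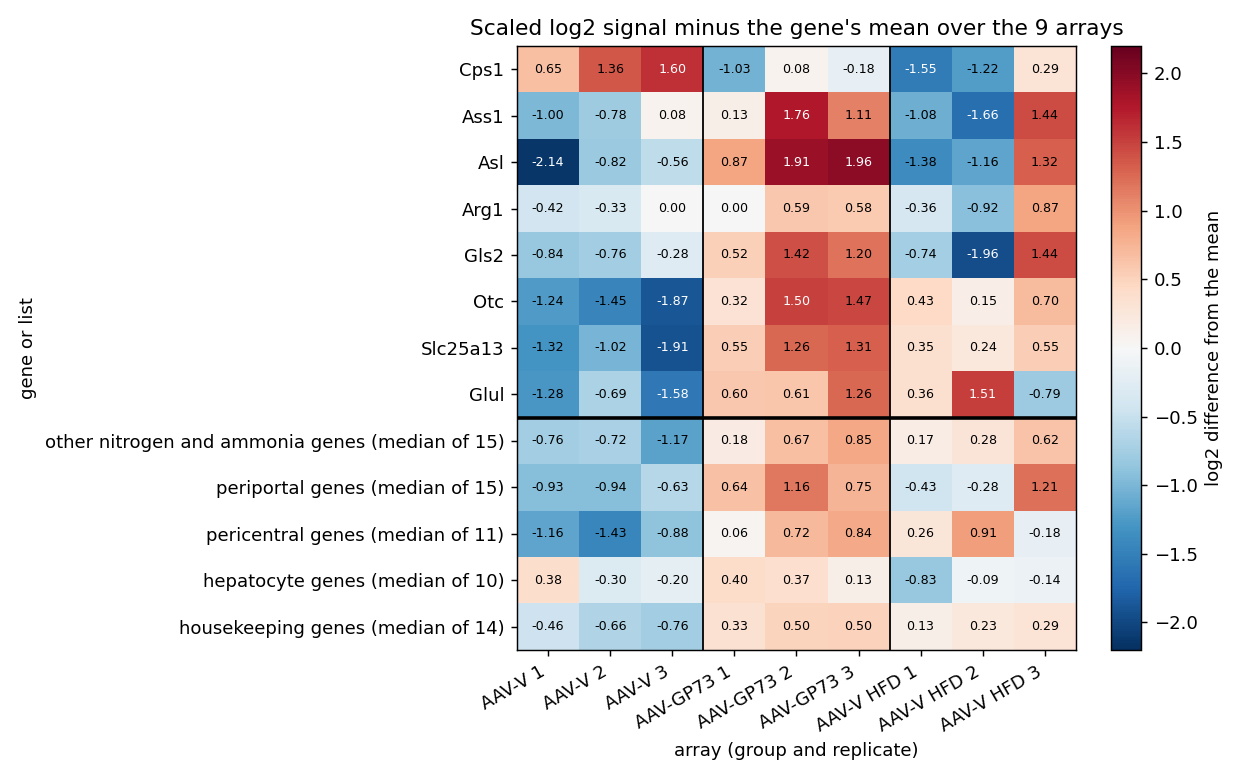
Scaled log2 signal of 8 member genes and the medians of 5 gene lists on each array (columns), each gene given as its difference from its own mean over the 9 arrays. The third AAV-V HFD array is high for Ass1, Asl, Arg1, Gls2 and the periportal list (1.21), while the other HFD arrays have periportal medians of -0.43 and -0.28. It is the lowest of its group for Glul and for the pericentral list (-0.18, against 0.26 and 0.91).

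Of 2 lists of other genes with zoned expression, the periportal list showed a like split. Taking each gene's difference from its mean over the 9 arrays, the median of 15 periportal genes, members left out, was -0.43 and -0.28 on AAV-V HFD replicates 1 and 2 and 1.21 on replicate 3. For 11 pericentral genes the medians were 0.26, 0.91 and -0.18, lowest on replicate 3 but with replicate 2 the farthest from the others. Hepatocyte markers (10 genes) had medians of -0.83, -0.09 and -0.14 on these arrays and did not set replicate 3 apart. On the AAV-V arrays both zoned lists were low, at -0.94 to -0.63 for periportal and -1.43 to -0.88 for pericentral genes. This was not particular to zoned genes. Housekeeping genes were at -0.76 to -0.46 there and other nitrogen and ammonia genes at -1.17 to -0.72, while hepatocyte markers were at -0.30 to 0.38. In whole liver, fewer cells of a type and less RNA per cell cannot be told apart.

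**Figure D3:**
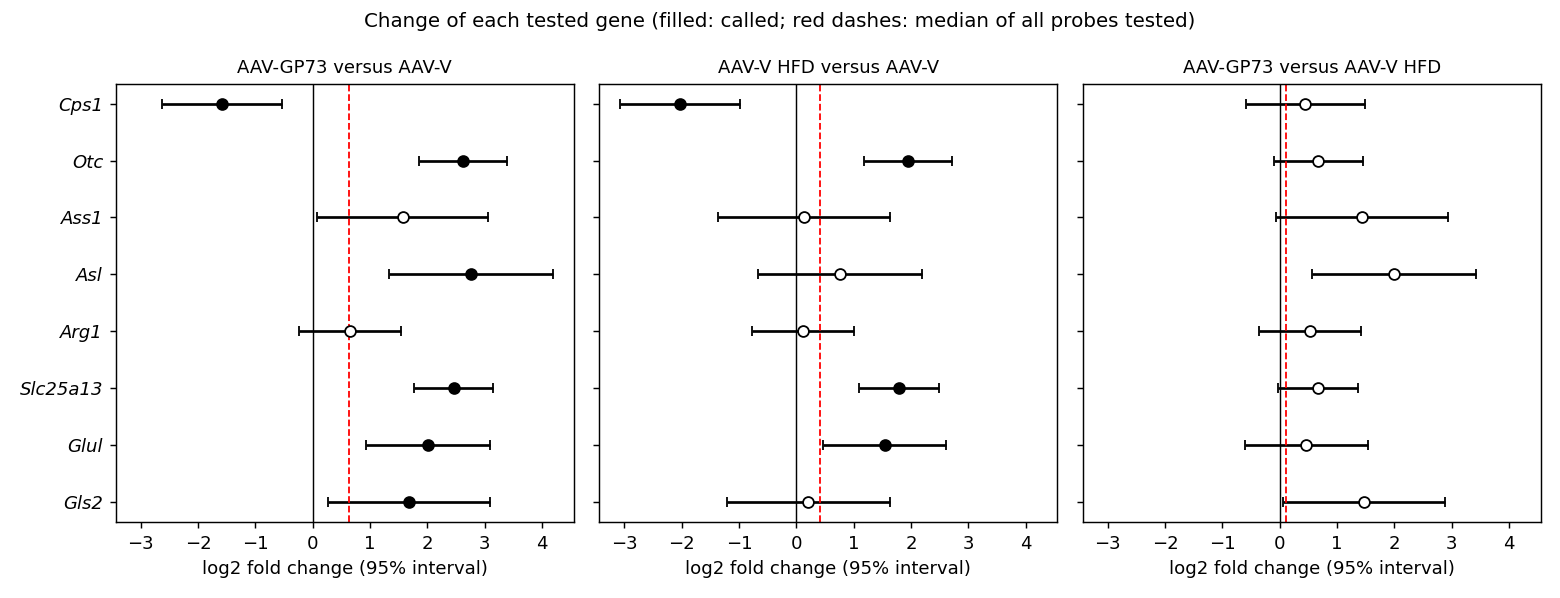
Log2 fold change of the brightest probe of the 8 tested genes in the 3 comparisons, with 95% intervals from limma. Filled points were called, and red dashes mark the median of all probes (0.64, 0.41 and 0.10); Otc and Slc25a13 lie to the right and Cps1 to the left of it in both comparisons with AAV-V, and 0 points are filled between AAV-GP73 and AAV-V HFD. For Asl and Slc25a13 the AAV-V arrays were not well above background, so their points against AAV-V are fitted values only.

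Between the GP73 livers and those on the HFD, 0 of the 8 members were called in limma, where 2% of all gene names were called higher and 0.59% lower. Before adjustment, p was under 0.05 for 2 members, Asl and Gls2, and for 15.8% of all gene names. The methods' test, run as an alternative, called 0 as well. The change was 1.99 for Asl (95% interval 0.56 to 3.42, adjusted p = 0.143), 1.46 for Gls2 (0.05 to 2.88, 0.288) and 1.43 for Ass1 (-0.06 to 2.93, 0.331). These intervals are wide, and a missed threshold does not show that the livers were alike. Without AAV-V HFD replicate 3 the same genes were called higher in AAV-GP73, Asl by 2.85, Gls2 by 2.39 and Ass1 by 2.37, with limma adjusted p of 0.0156, 0.0156 and 0.0326. That array was the highest of its group for these genes, so leaving it out raises the difference by construction. The calls made without it describe its weight and are no support for a difference. Over all 6593 probes 139 were then called higher and 13 lower. Cps1, Otc, Slc25a13, Arg1 and Glul differed by 0.44, 0.67, 0.66, 0.53 and 0.46, all with adjusted p of 0.387 or more except Slc25a13 (0.333).

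A shift of a whole array cancels when 2 probes are compared on it. The difference between Otc and Cps1 in log2 signal averaged -1.12 ± 0.79 with the empty virus, 3.09 ± 0.15 with GP73 and 2.87 ± 0.79 on the HFD (SD, n = 3 each). This measure was added after the data were seen, with Cps1 as the reference because it was low, so it is a description with no test. A gene at the median of all probes rises against Cps1 too, since Cps1 stood at -2.22 from that median with GP73 and at -2.44 on the HFD.

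**Figure D4:**
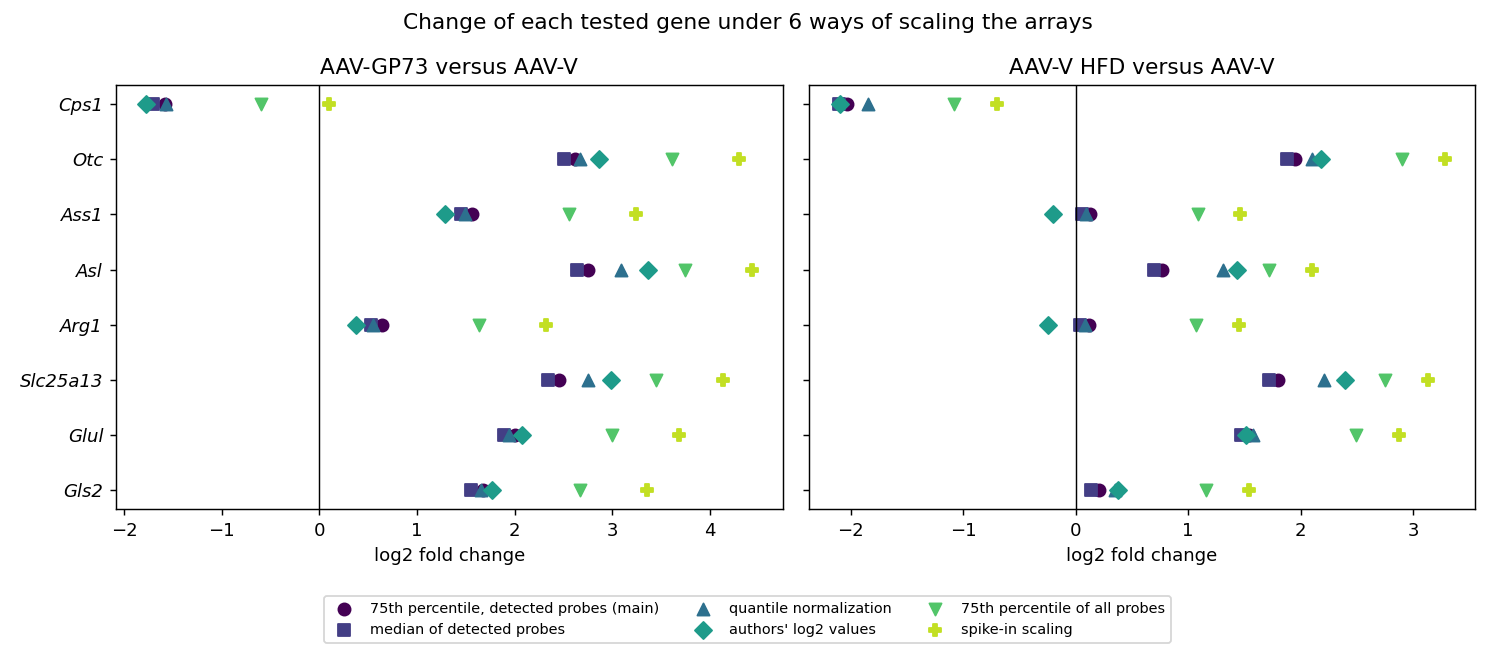
Log2 fold change of the 8 tested genes against AAV-V under 6 scalings of the arrays, for AAV-GP73 (left) and AAV-V HFD (right). Spike-in scaling moves all genes to the right, bringing Cps1 to 0.09 in AAV-GP73, while Otc stays between 2.51 and 4.30 there.

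The sizes of all these changes follow the scaling, since it moves the median of all probes from 0.52 to 2.32 in AAV-GP73 against AAV-V. Over the 6 scalings Otc, Slc25a13 and Glul were called higher in both comparisons and Asl was called higher in AAV-GP73. The distance from the median of all probes is the same by construction in the 4 settings that shift whole arrays. For Otc in AAV-GP73 it was 1.98 there, 1.89 with quantile normalization and 2.08 in the authors' log2 values. Arg1 in AAV-GP73 was not settled, at 0.38 to 2.33 over the 6 scalings.

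Other genes of nitrogen and ammonia metabolism were read from a list of 34 aminotransferases, amino acid transporters, enzymes of related amino acids and other genes, of which 15 could be tested. In AAV-GP73 livers 10 rose and 2 fell, where 33.2% and 19.4% of all gene names did so, and their median change was 1.5 against 0.64 for all probes. On the HFD 10 rose and 1 fell, where 24.8% and 18.1% of all gene names did so, with a median of 1.35 against 0.41. Oat, the ornithine aminotransferase, had the largest change of the list in both, 4.29 and 2.76 (limma adjusted p = 7.53e-05 and 0.00106). Only 1 AAV-V array read it well above background. Got1, the cytosolic aspartate aminotransferase, was higher by 2.14 in AAV-GP73 (limma adjusted p = 0.0257), and on the HFD its change was -0.24 (adjusted p = 0.803). Its HFD arrays spread widely (SD 1.96), and Got1 was not called between AAV-GP73 and AAV-V HFD (limma adjusted p = 0.121). Glud1, the glutamate dehydrogenase that releases ammonia in mitochondria, was higher in both, by 1.5 and 1.17 (adjusted p = 0.00565 and 0.0248). Aldh4a1, which makes glutamate from proline, was higher by 1.59 and 1.43 (adjusted p = 0.00295 and 0.0073). The alanine aminotransferase Gpt2 was lower in both, by -1.53 and -1.48 (adjusted p = 0.000546 and 0.00123). Slc1a2, a glutamate transporter, was lower in AAV-GP73 by -1.22 (adjusted p = 0.00337). Like Cps1, the genes that were lower are so relative to arrays with a rising median.

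Zoned genes and regulators of the cycle were read from lists as well. The shares of all gene names just given are the background of each count here too. In AAV-GP73 livers 8 of 15 periportal genes rose and 1 fell, with a median change of 1.38 against 0.64 for all probes. On the HFD 5 rose and 2 fell, with a median of 0.38 against 0.41, and the difference between these counts was not tested. The gluconeogenic enzymes Pck1 (3.59 and 2.39) and Fbp1 (2.73 and 1.65) were higher in both (limma adjusted p = 7.82e-05, 0.00095, 0.000186 and 0.0045). Tat, the tyrosine aminotransferase, was higher by 2.25 in AAV-GP73 (adjusted p = 0.00745), while Pigr, the polymeric immunoglobulin receptor, was lower by -1.34 (adjusted p = 0.00246). Cyp2f2, a periportal cytochrome, differed between AAV-GP73 and AAV-V HFD by 1.20 (adjusted p = 0.0258). Of 11 pericentral genes 7 were higher and 2 lower in each comparison, with medians of 1.67 and 1.39, among them Aldh1a1 (3.09 and 2.65), Rgn (2.33 and 2.35) and Cyp2e1 (1.67 and 1.39) higher and Cyp2c29 (-1.34 and -1.30) lower, and Lhpp was at least 4.14-fold higher in AAV-GP73. Of 14 regulators, 8 rose and 0 fell in AAV-GP73, and 6 rose and 1 fell on the HFD, with medians of 1.41 and 0.90. Hnf4a, a nuclear receptor that drives hepatocyte genes including Otc, was higher by 2.46 and 1.40 (limma adjusted p = 0.000149 and 0.00459), and Tcf7l2, a factor of the Wnt pathway, was lower on the HFD by -1.12 (adjusted p = 0.0143).

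General genes moved as well. Of 14 housekeeping genes, 8 rose and 1 fell in AAV-GP73, and 8 rose and 2 fell on the HFD. Over all gene names 33.2% rose and 19.4% fell in AAV-GP73, and 24.8% and 18.1% on the HFD. The housekeeping medians were 1.05 and 1.02, where those of the members were 1.84 and 0.49. Rises were thus also seen outside nitrogen metabolism, and the differences in size between the lists were not tested. Of 10 hepatocyte markers 2 and 1 were higher, with medians of 0.23 and -0.38. Markers of other liver cells were mostly near background: 4 of 7 Kupffer cell and macrophage, 1 of 6 endothelial, 2 of 6 stellate, 1 of 6 lymphocyte and 2 of 4 erythroid genes could be tested. Hba-a1, a haemoglobin chain, was higher in AAV-GP73 by 3.85 (limma adjusted p = 0.000204), and the summed scaled signal of the 4 erythroid genes was 1675 to 8429 there against 209.6 to 478 in AAV-V and 326 to 554 in AAV-V HFD. Alas2, the other erythroid gene tested, was not called in AAV-GP73 (0.75, limma adjusted p = 0.329). Des, a stellate cell gene, was lower in both, by -2.14 and -2.31 (adjusted p = 0.00409 and 0.00384). Reln, the other stellate gene tested, was at 0.66 in AAV-GP73 (limma adjusted p = 0.205) and -1.14 on the HFD (0.0452). No AAV-V or AAV-V HFD array read Reln well above background. The sum of the 6 stellate genes was 86.7 to 222 in AAV-V, 28.5 to 58.6 with GP73 and 24.5 to 50.8 on the HFD. In AAV-V 5 of the 6 were well above background on no array, so the sum says nothing of the list beyond Des. The part of these cells in the results on the urea cycle was not tested.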

How the data were processed

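Labelled cRNA of 9 liver samples was scanned on one-colour arrays. The authors deposited intensity values, the processed signals of Agilent Feature Extraction (12.0.3.1 per the file headers, 10.7 per the submitters' processing notes), corrected within each array and not scaled between arrays. A table of log2 values deposited by the authors holds 1 value per probe and array. Its normalization is not given in the sources used here, and it served as an alternative. Other columns used are marks of background and quality (98 to 151 spots per array were marked and left out, 0 were saturated). The files give probe coordinates in mm9.

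The members and the gene lists were chosen with earlier results of these data known, and the lists are no independent support. Samples were grouped by their labels. Spots of a probe were averaged and log2 processed signals were shifted to the 75th percentile of the 2667 probes well above background on all 9 arrays, since at most 14.9% of all probes were detected on an array and a percentile of all probes lies among those without signal. Each of 6593 probes was fitted with limma 3.58.1 (R 4.3.3) over all 3 groups, with Benjamini-Hochberg adjustment over these probes. Calls required a 2-fold change together with an adjusted p under 0.05. Where a probe was well above background on no array of a group, a lower bound of the fold is given, taking for each such array the higher of its lowest detected signal and the signal of the probe. All member probes are described. Of each list, at most 5 called genes with the largest change among those detected on all arrays of both groups are named, and genes with a bound of at least 4-fold. Got1 on the HFD is named as the counterpart of its AAV-GP73 value. Outside this rule, Oat is named as the largest change of its list, and Reln and Alas2 as the other tested genes of theirs. In simulated data for AAV-GP73 against AAV-V (6593 probes), only a small part of the probes was changed, as many up as down. There 54% of probes changed by a log2 of 1.5 and 92% of those changed by 2.5 were recovered, and 10 unchanged probes were called. In the real data 2239 probes were called higher and 1182 lower, a different setting. The simulated rates check that the fit runs correctly and do not give its power or false calls here. Replicate numbers were not treated as pairs: deviations of same-numbered arrays correlated between -0.105 and 0.167, with 2 of 9 over 0.1. The precision is limited by the 3 arrays per group.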

Additional observations from a re-analysis of the deposited data

How the results depend on the processing

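The direction of Otc, Slc25a13, Asl and Glul in AAV-GP73 was kept by each scaling, threshold and omitted array and with no filter, while the filter on probes detected on all 9 arrays leaves these genes out. With normexp background correction at an offset of 50, Otc (0.48) and the brighter Glul probe (0.41) kept it. With this correction 0 members were called in AAV-GP73 and 1 on the HFD, the member median in AAV-GP73 above that of all probes was 0.75 (1.20 in the main setting), and the median of all probes was -0.58. It turned Asl (-0.025), Slc25a13 (-0.052) and the second Glul probe (-0.47) in AAV-GP73, and on the HFD the second Glul probe (-0.81), Asl (-0.76), Slc25a13 (-0.48), Otc (-0.016), Gls2 (-0.56), Ass1 (-0.078) and Arg1 (-0.15). The cause was not tested. Asl, Slc25a13 and the second Glul probe lacked signal well above background in AAV-V, so their signs against AAV-V here are those of fitted values.

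Spike-in scaling turned Cps1 in AAV-GP73 (0.095) and called 1 member between AAV-GP73 and AAV-V HFD. The authors' log2 values turned Ass1 (-0.20) and Arg1 (-0.24) on the HFD. With no filter the member medians above all probes were 3.23 in AAV-GP73 and 1.58 on the HFD. With probes detected on all 9 arrays, which leaves 3 members, 2 were called in AAV-GP73 and 0 on the HFD, and the medians were 1.67 in AAV-GP73 and 1.49 between AAV-GP73 and AAV-V HFD. The methods' t-test called 6 members in AAV-GP73 and 3 on the HFD without adjustment, and 6 and 2 after Benjamini-Hochberg. No scaling, added after seeing the data, called 7 members on the HFD, where 4658 of all 6593 probes were called higher and 62 lower. The share of calls that were higher in AAV-GP73 was 65.4%, and 91.3%, 98.2%, 17.1%, 5.02% and 34.4% with the 75th percentile of all probes, spike-in scaling, normexp, no filter and probes detected on all 9 arrays. On the HFD it was 59.8%, and 95.2%, 98.2%, 8.46%, 3.87%, 29.3% and, with quantile normalization, 71.5%. The calls over all probes in AAV-GP73 numbered 2239 higher and 1182 lower, and 4375 and 418, 5124 and 93, 152 and 739, 2364 and 44702, and 430 and 821 under the same 5 settings.

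Leaving out 1 array gave 4 to 7 called members in AAV-GP73, 3 to 4 on the HFD and 0 to 3 between the 2 groups. Of all 6593 probes 1957 to 2321 were then called higher and 1124 to 1238 lower in AAV-GP73. On the HFD 1406 to 1779 were higher and 977 to 1203 lower, and between the 2 groups 32 to 156 and 6 to 36. Member medians above all probes were 1.05 to 1.43, -0.71 to 0.64 and 0.40 to 0.91. Without AAV-V HFD replicate 3, Asl, Gls2, Ass1 and Arg1 turned on the HFD, as did Glul between AAV-GP73 and AAV-V HFD, and without AAV-V replicate 1 Ass1 turned on the HFD (-0.084). Over the omitted arrays their changes ran from -0.094 to 1.25, -0.72 to 0.98, -0.81 to 0.75, -0.39 to 0.51 and -0.11 to 1.04. With the replicate number as a block, 7 members were called in AAV-GP73, Ass1 added (adjusted p = 0.0347), 4 on the HFD and 0 between the 2 groups, and it changed no other call. Of the values of single probes under all alternatives, 607 kept direction and side of the threshold, 31 gained a call, 24 lost one and 19 turned.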
